A study of Mus musculus with 59 samples.

Results

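Acetylation of histone H3 at lysine 27 (H3K27ac) away from promoters was examined here in the uterus of aging mice, through the peaks that lie inside genes and carry no H3K4me3. H3K27ac marks active promoters and active enhancers, whereas H3K4me3 is concentrated at promoters, so that H3K27ac without H3K4me3 inside a gene is the usual sign of a putative intragenic enhancer. A peak was taken when the deposited H3K27ac table gave it a gene ID and the orientation "overlapping", when it lay on chromosomes 1 to 19 or X, and when it overlapped no peak of the deposited H3K4me3 table. These conditions were met by 22719 of the 54354 H3K27ac peaks tested, or 41.8%. Of the other peaks, 20870 overlapped H3K4me3, 3109 flanked a gene without it and 7656 were intergenic without it.

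The tissue was snap-frozen endometrium taken from uteri of C57/B6 mice, all described with the same strain and with no other allele or treatment. The young group held 7 mice of 9 to 11 weeks, aged group 1 held 4 mice of 28 to 36 weeks, aged group 2 held 6 mice of 42 to 48 weeks and aged group 3 held 10 mice of 54 to 65 weeks. Each of the 27 mice gave 1 H3K27ac and 1 H3K4me3 library by native chromatin immunoprecipitation on micrococcal nuclease digests of a small number of nuclei. The tissue holds several cell types, so fewer cells of a type and less of the mark per cell cannot be told apart. Promoter H3K4me3 was measured for 28 of 36 epithelial marker genes, 17 of 24 stromal and 19 of 22 smooth muscle marker genes. It was also measured for 15 of 17 endothelial and 16 of 25 leukocyte marker genes. Measured means that an H3K4me3 peak lay within 1 kb of the gene's start, which alone does not show that a cell type was present.

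Levels are given as log2 RPKM (reads normalized to the length of the peak and the size of the library) after quantile normalization over all H3K27ac peaks, and differences are on the same log2 scale, aged minus young. A peak is called higher or lower when the Benjamini-Hochberg adjusted p of the limma fit over all 54354 peaks is below 0.05. H3K27ac libraries held 7.6 to 16.95 M reads, and the median gene-body peak held 28 to 57 reads per library. The share of reads in gene-body peaks was 9.33 to 13.73% in the young and 10.4 to 13.52% in aged group 3.

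The gene-body peaks were spread along long genes. They were assigned to 7346 genes, of which 48.2% had a single such peak and 1803 had 4 or more. Those 1803 genes held 63.9% of all gene-body peaks. The median width was 1647 bp (quartiles 1101 and 2490). By the RefSeq annotation of GRCm38.p6, 20365 peaks (89.6%) lay within the extent of the gene the table names, a median of 38.5 kb from its start (quartiles 14.4 and 93.0), and 2.31% of these were within 1 kb of the start. With each gene divided into 5 equal stretches from its start to its end, the stretches held 19.8, 23.3, 20.7, 18.6 and 17.7% of the peaks, an almost even spread. Of those matched to RefSeq, 90.7% were in protein-coding genes and 8.63% in long noncoding RNA genes. The X chromosome carried 0.828% of the gene-body peaks and 2.49% of the H3K27ac peaks with H3K4me3.

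Gene-body peaks were lower and noisier than promoter-type peaks. Their median level was 1.08 (quartiles 0.86 and 1.3), against 1.67 for peaks with H3K4me3, 1.06 for flanking and 1.05 for intergenic peaks. The median SD between libraries was 0.41 in the young and 0.50 in aged group 3, against 0.27 and 0.34 for peaks with H3K4me3. The gene-body peak with the highest level lay in Sfi1 (chr11:3178943-3180240), at 5.11, 5.11 and 5.42 (lowest, median and highest) in the young and 4.31, 5.23 and 5.42 in aged group 3. Quantile normalization gives the top ranks of every library the same values, so the Sfi1 level could differ little and a call was unlikely. The Sfi1 peak held 306 to 905 reads in the young and 229 to 2139 in aged group 3, before any scaling to library size. Whether it is an enhancer was not tested. The next highest gene-body peaks were in Mroh2a, in the region the table names Galnt2l, and in Eml4, Auh, Susd1, Kank2 and Myof. Among these 8 peaks, those in Susd1, a sushi-domain membrane protein (change 0.38 ± 0.14 SE, adjusted p of 0.0373 by limma), and Myof, the membrane-repair protein myoferlin (0.29 ± 0.1 SE, adjusted p of 0.0342 by limma), were called higher in aged group 3, and the other 6 were not called.

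The table's gene names reach beyond the genes in some places. The name Galnt2l covers 172 gene-body peaks over 4.32 Mb (chr8:119996359-124317515), although 22 of them lie in Ankrd11, 19 in Gse1 and 14 in Galnt2 by RefSeq. The name Fgfr2 covers 105 peaks over 2.94 Mb, and only 9 of these lie within Fgfr2 while 20 lie in Tacc2 and 15 in Fam53b. Both names therefore stand for regions of many genes, and neither is described as a gene below. Without these 2 regions, Rad51b, a recombination protein, had the most gene-body peaks (72), followed by Rbms3 with 41.

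A minority of gene-body peaks hold an annotated transcription start that carries no H3K4me3 peak. On the chromosomes whose promoter sequences were used, 667 of 21939 gene-body peaks (3.04%) held a RefSeq start, against 50.4% of the peaks with H3K4me3. The 250 bases before these starts were poor in CpG, with a median of 3 CpG (quartiles 2 and 5) and 49.6% G+C. The same window before starts inside peaks with H3K4me3 had a median of 16 CpG, and before starts outside H3K27ac peaks 3 CpG. The AP-1 motif TGANTCA, which reads the same on both strands, was found in 12.8% of the windows in gene-body peaks, in 4.33% of those in peaks with H3K4me3, in 8.33% of those outside H3K27ac peaks and in 6.75% of all 32817 windows. In the same order, the KLF and SP motif GGGCGG, on either strand, was found in 10.4, 58.0, 14.2 and 32.7%. Shares for the oestrogen receptor half-site GGTCA were 45.2, 32.9, 36.5 and 35.2%, for the TEAD motif GGAATG 17.2, 10.6, 14.0 and 12.6%, and for the forkhead motif TGTTTAC 4.23, 2.21, 3.85 and 3.16%. Windows outside H3K27ac peaks, which have the same median CpG count, were closer to those in gene-body peaks than windows in peaks with H3K4me3 were, for each of these 5 motifs. A match is a run of letters and not evidence of binding, and the sets differ in base composition.

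A few of these start windows show what such sequences look like in peaks that were higher and peaks that were lower in aged group 3. They are the windows of the peak's own named gene with the largest called change in each direction among those lying wholly inside their peak, given 5′ to 3′ on the gene's strand from RefSeq, GRCm38.p6. Capitals mark matches to 9 motifs searched on both strands: those above, the progesterone receptor half-site AGNACA, the NFI half-site TTGGCA, the E-box CACGTG and the TATA box TATAAA.
Slc13a2 (chr11:78422235-78422484, minus strand, higher): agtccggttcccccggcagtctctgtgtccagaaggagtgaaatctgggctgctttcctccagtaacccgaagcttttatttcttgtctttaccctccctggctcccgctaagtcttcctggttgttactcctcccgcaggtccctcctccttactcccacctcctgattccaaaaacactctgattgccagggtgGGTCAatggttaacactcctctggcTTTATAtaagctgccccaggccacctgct
Unc93a (chr17:13131792-13132041, minus strand, higher): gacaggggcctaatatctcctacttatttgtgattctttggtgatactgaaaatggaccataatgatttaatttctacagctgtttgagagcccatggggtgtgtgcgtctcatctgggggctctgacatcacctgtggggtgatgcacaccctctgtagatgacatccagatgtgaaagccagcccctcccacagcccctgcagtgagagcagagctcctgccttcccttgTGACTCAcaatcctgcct
Eml1 (chr12:108410386-108410635, plus strand, lower): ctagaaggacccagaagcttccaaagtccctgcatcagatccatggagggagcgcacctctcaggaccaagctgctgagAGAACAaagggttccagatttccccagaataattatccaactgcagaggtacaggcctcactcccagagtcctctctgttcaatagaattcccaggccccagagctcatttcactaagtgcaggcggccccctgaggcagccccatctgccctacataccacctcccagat
Ankrd6 (chr4:32923506-32923755, minus strand, lower): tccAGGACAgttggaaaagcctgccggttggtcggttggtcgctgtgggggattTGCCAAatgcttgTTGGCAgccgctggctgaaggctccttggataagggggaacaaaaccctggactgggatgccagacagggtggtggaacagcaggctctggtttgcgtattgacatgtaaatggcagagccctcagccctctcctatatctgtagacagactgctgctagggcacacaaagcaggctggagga
Slc13a2, a renal and intestinal dicarboxylate transporter, had a peak level of -3.22, -0.36 and 0.32 (lowest, median, highest) in the young and -0.19, 1.63 and 2.3 in aged group 3, a change of 1.99 ± 0.46 SE (adjusted p of 0.00469 by limma). The groups overlapped, with 8 of 10 aged libraries above all young ones. The peak at the internal Unc93a start was at -3.62, -1.62 and -0.94 in the young and at -0.71, 0.15 and 0.99 in aged group 3, and every aged library was above every young one (change 1.91 ± 0.39 SE, adjusted p of 0.0025 by limma). Eml1, a microtubule-binding protein, went from 1.05, 1.28 and 2.0 to -0.42, 0.13 and 0.94 at a start 39634 bp from its outer start, with no overlap. Ankrd6, a regulator of Wnt signalling, went from 0.56, 1.29 and 1.91 to -0.56, -0.04 and 0.98, with 8 of 10 aged libraries below all young ones.

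In all, 48 annotated microRNA hairpins lay inside 40 gene-body peaks, with 8 hairpins in peaks called higher and 3 in peaks called lower in aged group 3. Over all H3K27ac peaks 14.4% were called higher and 14.9% lower, and over gene-body peaks 16.8 and 11.7%, so the 8 of 48 hairpins lie near the gene-body share. The miR-29a and miR-29b-1 hairpins shared a peak of 24966 bp (chr6:31059121-31084086). MiR-29 is known for repressing collagen and other matrix transcripts. The mature strands of this pair and of miR-100, whose hairpin also lay in a higher peak, are shown with the seed (bases 2 to 8) in capitals. Both miR-29 strands have the same seed.
mmu-miR-29a-3p: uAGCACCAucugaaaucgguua
mmu-miR-29b-3p: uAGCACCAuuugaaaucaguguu
mmu-miR-100-5p: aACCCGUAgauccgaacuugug
The miR-29a and miR-29b-1 peak was at 1.63, 1.82 and 2.22 in the young and at 1.82, 2.29 and 2.41 in aged group 3, with 8 of 10 aged libraries above all young ones (change 0.37 ± 0.11 SE, adjusted p of 0.0147 by limma). The peak in Mir100hg went from -0.47, 0.73 and 1.15 to 0.36, 1.76 and 2.42 (change 1.05 ± 0.32 SE, adjusted p of 0.0185 by limma). These 3 microRNAs were chosen after their values were seen.

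In the oldest mice, 3812 gene-body peaks were higher than in the young and 2658 were lower, together 28.5% of them. Over all H3K27ac peaks, 14.4% were called higher and 14.9% lower, while the gene-body shares were 16.8 and 11.7%. Peaks with H3K4me3 had the opposite split, 10.5% higher and 17.8% lower, flanking peaks had 18.2 and 13.5%, and intergenic peaks 16.1 and 16.9%. Changes beyond 2-fold were called in 1505 of the 22719 gene-body peaks upward and in 579 downward. Over all 54354 H3K27ac peaks these counts were 3067 and 1459. The split depends on the scale: with the values as deposited, 3842 gene-body peaks were higher and 4386 lower (46.7% of calls higher in place of 58.9%), and the median change over gene-body peaks moved from 0.02 to -0.12. Directions given below for groups of genes are therefore relative to that shift.

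Within the gene-body peaks, the share called higher fell with distance from the gene's start. It was 21.2% under 5 kb, 18.2% from 5 to 20 kb, 16.2% from 20 to 100 kb and 13.5% over 100 kb, while the share called lower went from 8.88% under 5 kb to 15.2% over 100 kb. By width quartile, among the widest peaks 24.7% were higher and 10.1% lower, and among the narrowest 8.84 and 12.4%. By quartile of level taken within the gene-body peaks, 26.6% of the weakest were higher and 11.1% lower. The share called higher was 12.9, 12.4 and 15.1% in quartiles 2, 3 and 4. Of the 188 gene-body peaks on the X chromosome, 45 were higher and 15 lower. These bins share libraries and their differences were not tested.

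**Figure D1:**
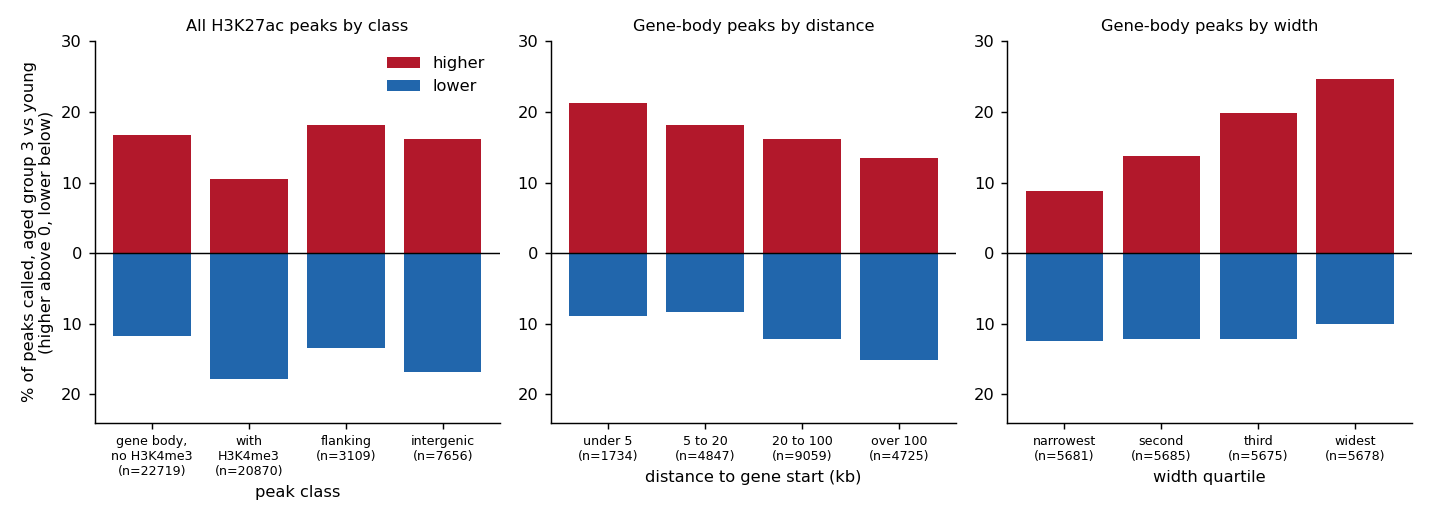
Percentage of peaks called higher (above 0) and lower (below 0) in aged group 3 against young, for the 4 classes of H3K27ac peak and, within gene-body peaks, by distance to the gene start and by width quartile; n is the number of peaks. Gene-body peaks have 16.8% higher and 11.7% lower, and the share called higher falls from 21.2% under 5 kb to 13.5% over 100 kb.

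The aged libraries did not move as a block. The median level of the peaks called higher was 0.37, 0.45 and 0.78 (lowest, median, highest) over young libraries, 0.57, 0.71 and 0.85 in aged group 1, 0.6, 0.89 and 1.57 in aged group 2, and 0.74, 1.66 and 1.9 in aged group 3. These peaks were chosen by this comparison, so the values only describe the spread. Within aged group 3, 7 libraries lay between 1.39 and 1.9, while replicates 3, 4 and 10 lay at 0.81, 0.88 and 0.74, beside the highest young library. The library names carry a code digit whose meaning is not given in the sources used here, and digits 1 and 6 hold no young library. Within the digits that hold both groups, aged minus young for the higher peaks was 1.48 (digit 2, 1 young and 1 aged), 0.41 (digit 3, 1 and 1), 0.51 (digit 4, 1 and 1), 0.96 (digit 5, 1 and 2) and 0.13 (digit 7, 3 and 1). With the digit as a factor 366 gene-body peaks were higher and 156 lower, with mouse numbers above and below 100 as a factor 1703 and 1322, and without the 4 libraries of digit 6, 3 of them of aged group 3, 472 and 292. Nearly all young mice had numbers below 100, while all mice of aged groups 1 and 2 and most of aged group 3 had numbers above it. Mouse number was therefore largely confounded with age, and the fit with it rests on few mice.

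Epithelial and stromal markers moved with the same libraries. Promoter H3K4me3 rose at 23 of the 28 measured epithelial markers and fell at none, and it fell at 15 of 17 stromal and 10 of 19 smooth muscle markers and rose at none. Over all promoters with an H3K4me3 peak, 8.71% rose and 17.9% fell. It rose at 3 of 15 endothelial markers and fell at 2, and rose at 5 of 16 leukocyte markers and fell at 1. Of 3 pericyte markers 0 rose and 2 fell, and of 3 mesothelial and fat cell markers 1 rose and 2 fell. The difference between the mean epithelial and the mean stromal promoter level ranged from -1.29 to -0.11 in the young, from -0.69 to -0.38 in aged group 1, from -0.85 to 1.12 in aged group 2 and from -1.25 to 2.33 in aged group 3. Replicates 3, 4 and 10 of aged group 3, at -0.17, -0.18 and -1.25, were within the young range. With this difference as a covariate, 8 gene-body peaks were higher and 2 lower. The part of cell-type makeup in the other calls was not tested.

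**Figure D2:**
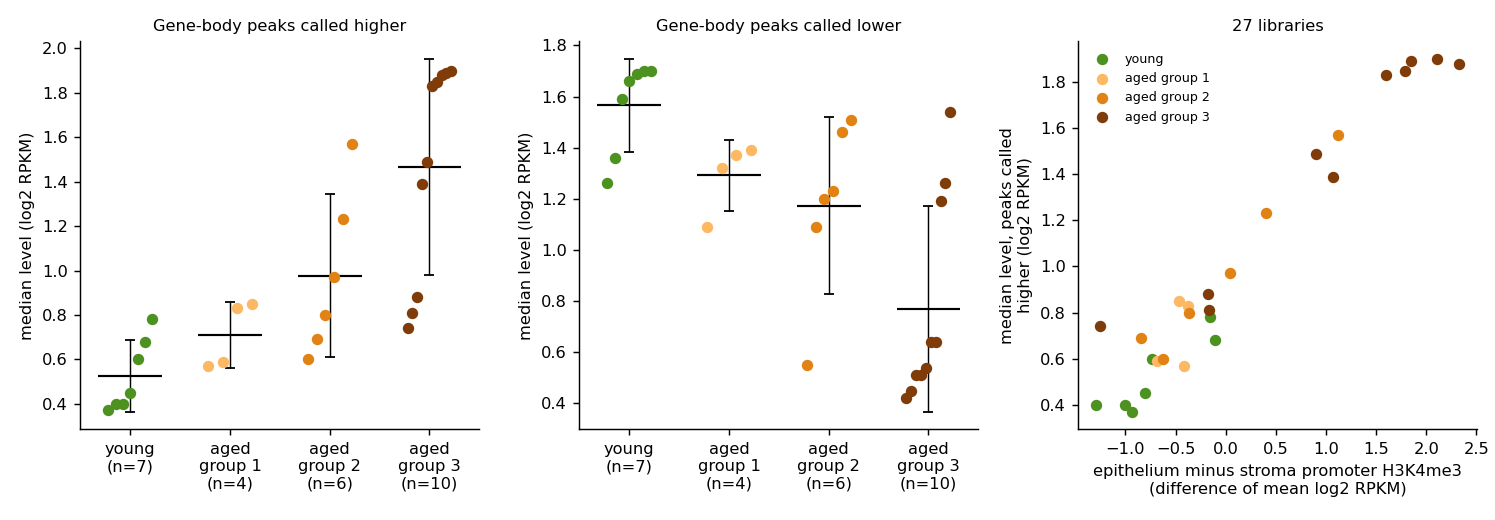
Median level (log2 RPKM) per library of the gene-body peaks called higher and of those called lower in aged group 3, by age group, with the mean and SD as line and bar, and the first of these against the epithelium minus stroma promoter H3K4me3 difference of the same mice. In aged group 3, 7 libraries lie between 1.39 and 1.9 in the first panel and 3 lie near the young, which range from 0.37 to 0.78.

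Few changes were called before the oldest age. Against young, aged group 2 had 2 gene-body peaks higher and 0 lower (6 higher, 0.011%, of all H3K27ac peaks). An unadjusted p below 0.05 was reached by 2148 gene-body peaks (9.45%), beside 8.92% of all H3K27ac peaks. The comparison of aged group 1 with young had 0 calls by limma (0.0% of all peaks). It had 916 gene-body peaks (4.03%) at an unadjusted p below 0.05, beside 3.93% of all peaks. Between neighbouring aged groups limma also called 0 (0.0% of all peaks). From group 1 to group 2, 747 gene-body peaks (3.29%) had an unadjusted p below 0.05, beside 2.78% of all peaks. From group 2 to group 3 these were 3152 (13.9%), beside 16.0% of all peaks. The 2 peaks called in aged group 2 lie near each other on chromosome 7, in Gm5155 (chr7:17902149-17904520) and in Ceacam12 (chr7:18073825-18074766), a member of the carcinoembryonic antigen family. Gm5155 held 1 to 11 reads in the young and 21 to 212 in aged group 3, and its level went from -4.64, -3.18 and -1.55 in the young to -0.1, 1.89 and 2.82. Every aged group 3 library was above every young one in Gm5155. Its change was 3.42 ± 0.59 SE in aged group 2 (adjusted p of 0.0292 by limma) and 4.68 ± 0.52 SE in aged group 3 (adjusted p of 4.36e-06 by limma). Ceacam12 held 0 to 15 reads in the young and 11 to 49 in aged group 3, with 8 of 10 aged libraries above all young ones and changes of 3.1 in aged group 2 (adjusted p of 0.0493 by limma) and 3.42 ± 0.5 SE in aged group 3. With so few reads in the young these fold changes rest on small counts, and neither of the 2 was called in aged group 2 with the digit as a factor.

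In all, 93 gene-body peaks had every aged group 3 library above every young library, and 44 had every one below. These counts are 0.409 and 0.194% of the gene-body peaks, beside 0.35 and 0.21% of all H3K27ac peaks. The 12 with the largest change in each direction, 1 per named gene, are described next. Their own promoter, where it had an H3K27ac peak within 1 kb of the RefSeq start that also overlapped H3K4me3, is given for comparison.

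The 12 higher peaks included those of 2 transmembrane serine proteases and a zinc transporter. The Tmprss6 peak (chr15:78468092-78469056), at the start of the gene for the serine protease matriptase-2, was at -1.57, -0.34 and 0.13 in the young and at 0.24, 2.18 and 3.2 in aged group 3, the largest change of the set at 2.45 ± 0.41 SE (adjusted p of 0.000796 by limma). Tmprss11g, another transmembrane serine protease, went from -0.94, -0.62 and -0.39 to -0.25, 1.32 and 2.09, and its promoter H3K27ac rose by 2.51. Slc39a8, the zinc transporter ZIP8, went from -0.86, -0.13 and 0.39 to 0.56, 1.69 and 2.68. In all 3 the lowest aged library lay close to the highest young one, and no library of the groups overlapped.

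The peak with the smallest adjusted p of these was in Ppp1r9a (chr6:4982794-4983502), which encodes the actin-binding protein neurabin-1. It lay 79.9 kb from the start and went from -0.38, 1.16 and 1.55 to 1.74, 2.79 and 3.31 (change 1.92 ± 0.26 SE, adjusted p of 5.35e-05 by limma), while the promoter changed by 0.05 (adjusted p of 0.829 by limma). Gpr137, an orphan membrane receptor, went from -4.21, -0.21 and 0.13 to 0.39, 1.38 and 1.59, and its promoter change was -0.27 (adjusted p of 0.0635 by limma). The lowest young Gpr137 library held 1 read, and the aged libraries held 22 to 74. Ryr3, a calcium channel of the endoplasmic reticulum, went from -1.67, -1.03 and 0.15 to 0.52, 1.58 and 2.47. Signalling genes in the set were Irak2, a kinase of interleukin-1 and Toll-like receptor signalling (change 1.82 ± 0.37 SE, promoter change 0.4), and Dock8, a guanine nucleotide exchange factor known from leukocytes (1.8 ± 0.35 SE, promoter change 0.23, adjusted p of 0.44 by limma). The others were Dennd2d, Acsm3, Lipk and Lmo7, with changes of 1.97, 1.93, 1.92 and 1.78.

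The 12 lower peaks included those of 3 genes that make or modify extracellular matrix. Adamts2, the protease that trims the amino ends of procollagens, had a peak (chr11:50620542-50623219) at 1.58, 1.89 and 2.05 in the young and at -0.26, 0.49 and 1.54 in aged group 3, a change of -1.21 ± 0.23 SE (adjusted p of 0.0019 by limma). Matn2, the matrix protein matrilin-2, went from 1.11, 1.23 and 1.57 to -1.18, 0.19 and 0.63, and its promoter H3K27ac fell by 0.79. Extl3, a glycosyltransferase of heparan sulfate synthesis, went from 1.41, 1.71 and 1.9 to -0.04, 0.64 and 1.32, with a promoter change of -0.27 (adjusted p of 0.304 by limma). The aged libraries were more spread than the young ones in each of these.

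The largest fall was in Hecw2 (chr1:54126022-54127320), a ubiquitin ligase, from 1.32, 1.94 and 2.22 to -0.28, 0.23 and 1.1 (change -1.46 ± 0.23 SE, adjusted p of 0.000447 by limma). Msra, a methionine sulfoxide reductase that repairs oxidized proteins, had its peak 309 kb from the start and went from 1.12, 1.44 and 1.91 to -1.29, 0.31 and 1.03. Agap1, an Arf GTPase-activating protein, had its peak 405 kb from the start and a change of -1.0 ± 0.21 SE, beside a promoter change of 0.17 (adjusted p of 0.452 by limma). Arid1b, a subunit of the BAF chromatin remodeller, had 33 gene-body peaks, of which 1 was higher, 3 were lower and 29 were not called. Dpys, Eml1, Ddc, Kirrel and Lrch3 completed the set, with changes from -1.29 to -0.97.

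**Figure D3:**
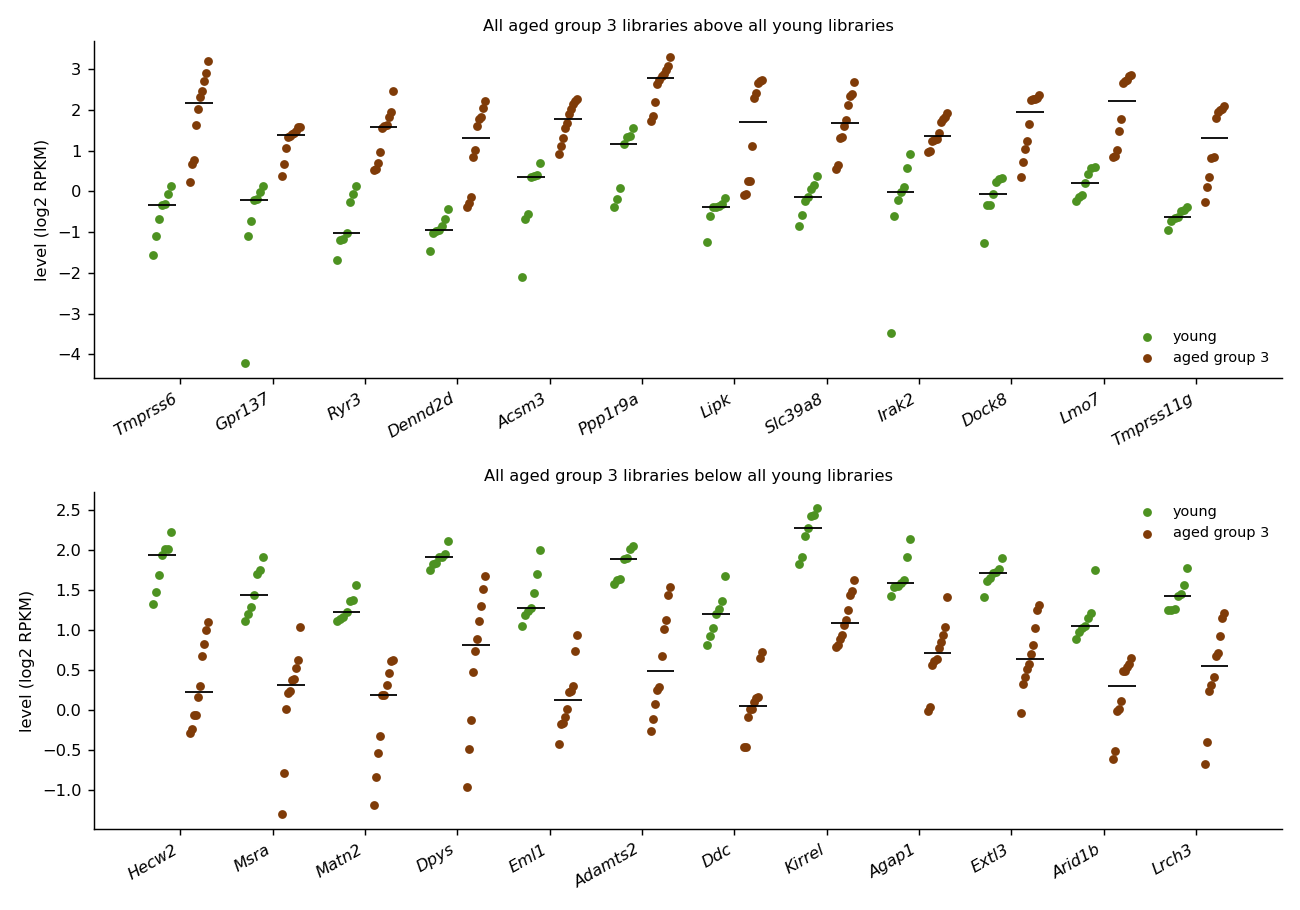
Level (log2 RPKM) of the 12 higher and the 12 lower gene-body peaks named, in each young and each aged group 3 library, with the median as a line. No aged group 3 point reaches the young points of the same peak, the condition on which these peaks were chosen.

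In some genes every gene-body peak was called in the same direction. Of the 1803 genes with 4 or more gene-body peaks, 390 had none called, 1084 had calls in 1 direction only and 329 in both. Among the 1084 were 15 genes with all peaks higher and 11 with all peaks lower. Radx, a replication-fork protein, and its neighbour Rnf128, a ubiquitin ligase, lie next to each other on the X chromosome, and all 7 peaks of Radx (median change 1.25, from 0.99 to 1.7) and all 6 of Rnf128 (median 1.37, from 1.07 to 1.55) were higher. Promoter H3K4me3 of both rose, by 0.77 and 1.35. All 7 peaks assigned to Tshr, the thyrotropin receptor, were higher (median 1.25), although 4 of the 7 lay within its RefSeq extent. Fut9, a fucosyltransferase that builds Lewis x glycans, had 5 of 5 higher (median 1.28) and a promoter H3K27ac rise of 1.81, and Alcam, a cell adhesion molecule, 4 of 4 (median 1.48). Plekhm1, a lysosomal trafficking adaptor, had 6 of 6 higher with a promoter H3K27ac rise of 0.41 (adjusted p of 0.0385 by limma) and a promoter H3K4me3 change of 0.04 (adjusted p of 0.638 by limma). Abhd17c and Slc39a8 completed this group with 6 of 6 and 4 of 4.

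The genes with every peak lower were led by Ccbe1, a secreted factor needed for lymphatic vessel growth. All 12 of its peaks were lower (median -1.17, from -1.76 to -0.68), and its promoter H3K27ac fell by 1.06. Nkd1, an inhibitor of Wnt signalling, had 7 of 7 lower (median -0.91), Plod2, a lysyl hydroxylase of collagen, 5 of 5 (median -0.95), and Tenm3, a teneurin adhesion protein, 5 of 5 (median -1.14). Wt1os, the transcript antisense to the stromal transcription factor Wt1, had 5 of 5 lower, and both peaks assigned to Wt1 itself were lower too (median -0.89). Tpst1, Colec12 and Saxo1 had 6 of 6, 4 of 4 and 4 of 4 lower.

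Other genes held peaks that went opposite ways. In all, 57 gene names had at least 2 higher and 2 lower peaks, among them the regions named Galnt2l and Fgfr2. In Nfib, a transcription factor of the nuclear factor I family, 8 of 24 peaks were higher and 2 lower, with changes from -0.65 to 1.38, while the promoter change was 0.1 (adjusted p of 0.659 by limma). Frmd4b had 3 of 25 higher and 9 lower beside a promoter fall of 1.29, and Ttll5 had 6 of 17 higher and 3 lower. Lrmda had 2 of 33 higher and 16 lower. Rad51b and Etv6, which also held many gene-body peaks, had calls in 1 direction only. Rad51b had 0 of 72 higher and 19 lower. Etv6, a transcriptional repressor of the ETS family, had 11 of 33 higher and 0 lower, with a promoter change of -0.03 (adjusted p of 0.818 by limma).

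Most promoters of genes with a called gene-body peak were not called themselves, in either direction. Among 832 genes with a lower peak and a promoter H3K27ac peak, 331 promoters fell (39.8%), 14 rose (1.68%) and 487 were not called. Among 1362 with a higher peak, 190 rose (14.0%), 133 fell (9.77%) and 1039 were not called. Over all 10088 promoters 5.38% rose and 19.8% fell. For H3K4me3, which comes from separate libraries of the same mice, 266 of 1432 promoters rose and 115 fell in genes with a higher peak, and 38 of 942 rose and 360 fell in genes with a lower peak, beside 8.71 and 17.9% of all promoters.

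The difference between the mean gene-body level and the promoter level of the same gene was then fitted directly for the 3890 genes with both. It was higher in aged group 3 in 743 genes (19.1% of those tested) and lower in 114 (2.93%). Over all of them the median change was 0.2, made of 0.07 in the body and -0.14 at the promoter. In the 743 genes the body rose by a median of 0.59 and the promoter changed by -0.19, and 197 of their promoters were called lower, 19 higher and 527 neither. In the 114 genes the medians were -0.49 and 0.27, with 45 promoters higher and 0 lower. A constant added to a whole library leaves this difference as it was, and values as deposited and values centred on library medians both gave 728 genes higher and 215 lower. Per library, the median difference was -0.94, -0.86 and -0.71 (lowest, median, highest) in the young and -1.0, -0.54 and -0.43 in aged group 3. In aged group 3, replicate 3 lay at -1.0, below the young, replicates 1 and 4 lay at -0.78 and -0.82, within the young range, and the other 7 lay above it. Replicates 2, 5, 6, 7, 8 and 9 lay at -0.52, -0.52, -0.43, -0.49, -0.62 and -0.56, with epithelium minus stroma differences of 2.33, 1.07, 2.11, 1.85, 1.79 and 1.6. That marker difference was 0.9 in replicate 1, -0.17 in replicate 3, -0.18 in replicate 4 and -1.25 in replicate 10, the last at -0.52. The part of cell-type makeup in the body minus promoter change was not tested. With the code digit as a factor 95 genes were higher and 5 lower, with mouse numbers above and below 100 as a factor 88 and 22, and with the epithelium minus stroma difference as a covariate 2 and 0. Without young replicate 3 there were 416 higher, and without aged group 3 replicate 3 there were 1075.

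The genes with the smallest p gave the clearest examples. In Gtf2a1, a subunit of the general transcription factor TFIIA, the mean of 3 body peaks went from 0.2 to 1.44 while the promoter went from 2.68 to 2.61. Its body minus promoter difference was -2.89, -2.48 and -2.12 in the young and -2.14, -1.08 and -0.58 in aged group 3, a change of 1.31 ± 0.21 SE (adjusted p of 0.000575 by limma). Mtap, an enzyme of methionine salvage, went from 0.38 to 1.39 in the body and from 2.44 to 2.27 at the promoter. Aasdh, Gpr137 and Adck5, with 1 body peak each, changed by 1.24, 2.41 and 2.35, and Eva1a by 0.88 on top of a promoter rise of 0.87. In the opposite direction, Per2, a repressor of the circadian clock, kept a body change of -0.12 over 5 peaks while its promoter rose from 2.2 to 2.66, and its difference fell by 0.59 (SE 0.13, adjusted p of 0.00689 by limma). Il34, a ligand of the macrophage receptor CSF1R, had a promoter rise of 1.12 beside a body change of -0.44. Zbtb8a, Unc5b, Tdrd7 and Acot11 changed by -0.97, -1.0, -1.29 and -0.95.

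**Figure D4:**
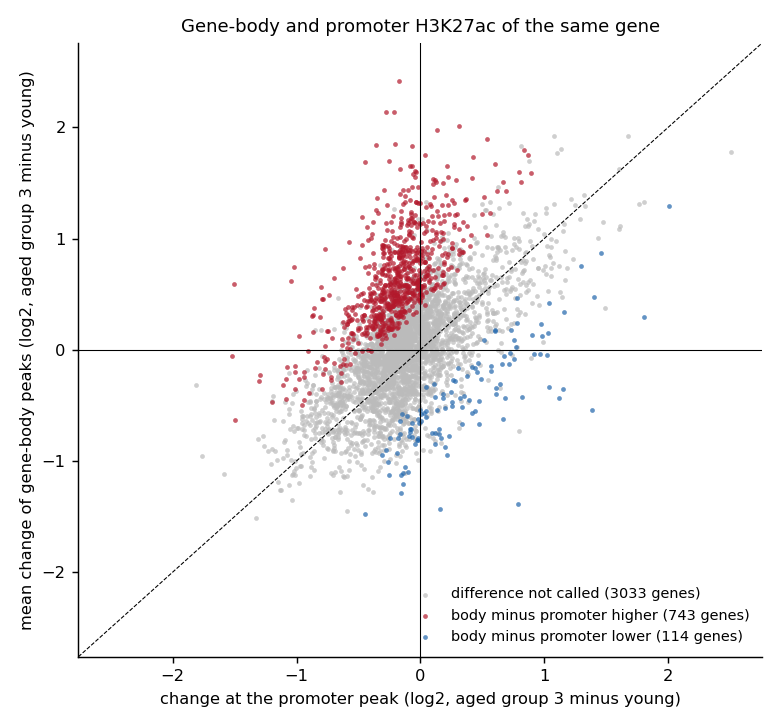
Mean change of the gene-body peaks (vertical) against the change of the promoter H3K27ac peak (horizontal), log2, aged group 3 minus young, for 3890 genes; the dashed line marks equal change. The 743 genes with a called higher difference lie above the line, many at a promoter change near or below 0, and the 114 lower ones lie below it.

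Gene lists put these changes into the biology of the uterus, in which oestrogen and progesterone act through their receptors on epithelium, stroma and muscle. Of 108 gene-body peaks in 14 genes of steroid receptors and coregulators, 21 were higher (19.4%) and 4 lower (3.7%, median change 0.15). The share called higher was near the 16.8% of all gene-body peaks, of which 11.7% were lower. Over all H3K27ac peaks the shares were 14.4 and 14.9%. Esr1, oestrogen receptor alpha, had 19 peaks with 3 higher and 2 lower. Its peak 256 kb from the start (chr10:4868486-4870734) was at -0.19, 0.19 and 1.48 in the young and at 0.04, 1.75 and 2.18 in aged group 3 (change 1.13 ± 0.32 SE, adjusted p of 0.0118 by limma), whereas the Esr1 promoter fell by 0.29 (adjusted p of 0.0194 by limma). Rxra, the retinoid X receptor alpha, had 3 of 11 higher, and in its largest every aged library was above every young one. Greb1, an oestrogen-induced cofactor, had 4 of 7 higher and a promoter rise of 1.07. With the deposited scale the counts for this list were 18 higher and 10 lower.

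Target genes of the 2 hormones had more lower than higher gene-body peaks, with many of the lower ones in 1 gene. Of 42 peaks in 14 genes, 3 were higher (7.14%) and 13 lower (31.0%, median -0.54). Over all gene-body peaks the shares were 16.8 and 11.7%. By gene, 3 had a higher peak and 6 a lower one. Zbtb16, a transcription factor induced by progesterone, held 19 of the 42 peaks and 7 of the 13 lower ones, and none of its peaks was higher. Its most changed peak went from 0.58, 1.11 and 1.63 to -3.87, -0.16 and 1.12, and its promoter fell by 0.96. Both peaks of Prlr, the prolactin receptor, were lower. The 3 higher ones were in Padi2, Lif and Hbegf, and the largest, in Padi2, changed by 1.55 ± 0.4 SE (adjusted p of 0.00823 by limma).

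Matrix, stromal and smooth muscle genes had more lower than higher gene-body peaks. Of 149 peaks in 32 genes of collagens and matrix, 11 were higher (7.38%) and 42 lower (28.2%, median -0.47). Over all gene-body peaks the shares were 16.8 and 11.7%. Col4a2, a basement membrane collagen, had 8 of 15 lower, Col4a1 3 of 5, and Lama2, a laminin chain, 3 of 4 with a median of -1.18. Fbln5, an elastic fibre protein, had 4 of 6 higher with a promoter change of -0.25 (adjusted p of 0.249 by limma), and its largest went from -0.85, -0.08 and 1.47 to -0.37, 2.21 and 2.84. Of 30 peaks in stromal marker genes 1 was higher and 12 lower (median -0.51), among them Dcn, the proteoglycan decorin (-1.06 ± 0.28 SE), Pdgfrb and Twist2. Smooth muscle genes had 4 of 74 higher and 20 lower (median -0.44), with 9 of 16 lower in Synpo2 and 5 of 10 in Cald1, both actin-binding. On the deposited scale 13 matrix peaks were higher and 73 lower, with 1 and 16 for stroma and 5 and 34 for smooth muscle. With the code digit as a factor few calls were left in these lists, with 0 higher and 5 lower for matrix, 0 and 1 for stroma and 1 and 1 for smooth muscle.

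Epithelial genes had higher peaks and no lower ones, and endothelial and leukocyte genes had both. Of 40 peaks in 11 epithelial genes 8 were higher (20.0%) and 0 lower (median 0.31). The share called higher was near the 16.8% of all gene-body peaks, of which 11.7% were lower. The higher peaks lay in 5 of the 11 genes, and 1 was left with the code digit as a factor. They included those of the epithelial transcription factors Grhl2 (0.13, 0.34 and 1.26 in the young, 0.91, 1.74 and 2.48 in aged group 3), Ehf and Pax8, and of the secreted ligand Wnt7b. Endothelial genes had 8 of 48 higher (16.7%) and 4 lower (8.33%), near the 16.8 and 11.7% of all gene-body peaks. In this list 5 of 21 were higher in Mecom and both in Flt1, 2 of 4 were lower in Eng and 1 of 6 in Erg, and Vwf had 1 of 5 each way. Leukocyte genes had 8 of 34 higher (23.5%) and 4 lower (11.8%), with 5 of 9 higher in Ikzf3, a lymphoid transcription factor, and 3 of 9 lower in Arhgap15. On the deposited scale the counts became 9 higher and 7 lower for endothelial genes and 8 and 6 for leukocyte genes. The single pericyte peak, in Abcc9, was lower, and 1 of 2 peaks of mesothelial and fat cell genes, in Pparg, was higher. Housekeeping genes had 0 of 3 called. Neuron genes, which serve as a control, had 3 of 15 higher (20.0%, the same share as the epithelial genes) and 0 lower, or 3 and 4 on the deposited scale.

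Signalling pathways split by gene. Over all gene-body peaks 16.8% were higher and 11.7% lower. In TGF-beta and BMP signalling 16 of 105 peaks were higher (15.2%) and 28 lower (26.7%, median -0.16), or 12 and 36 on the deposited scale. Tgfbr3, the co-receptor betaglycan, held 18 of these 28 lower peaks, with 18 of its 24 lower (median -0.77) and none higher. Tgfbr2 had 5 of 16 lower, and Bmp7, a ligand, 2 of 3. The signal transducer Smad3 had 6 of 17 higher and 0 lower, with a promoter change of -0.27 (adjusted p of 0.065 by limma). In Wnt signalling 8 of 123 were higher (6.5%) and 22 lower (17.9%), or 8 and 31 on the deposited scale. All 7 of Nkd1, both of the ligand Rspo3 and 5 of 7 of Prickle2 were lower. The largest rise in the Wnt list was in Sfrp1, a secreted Wnt antagonist, from -2.14, -0.89 and -0.14 to -1.2, 1.89 and 2.22 (change 1.98 ± 0.51 SE, adjusted p of 0.00781 by limma). In axon guidance 13 of 116 were higher (11.2%) and 21 lower (18.1%), or 19 and 30 on the deposited scale, with 7 of 12 higher in the ligand Ntn1 and 5 of 8 lower in Sema5a.

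In the cytoskeletal and transcription factor lists the share of higher peaks was close to that of all gene-body peaks (16.8%). Cytoskeleton and focal adhesion genes had 48 of 297 higher (16.2%) and 22 lower (7.41%, median 0.1), with 9 of 24 higher in Lpp and 7 of 18 in Dst. On the deposited scale the counts of the list became 47 and 44, and the median -0.01. Genes of the AP-1, TEAD, KLF, FOXO and NFI families had 28 of 149 higher (18.8%) and 8 lower (5.37%), with 5 of 25 higher in Tead1 and 7 of 28 in Foxp1. On the deposited scale these families had 28 higher and 18 lower, and their median went from 0.1 to -0.04. Interferon and antigen presentation genes had 5 of 23 higher and 1 lower, and senescence and inflammation genes 7 of 26 and 1, including both of those called in Nfkb1 and the single peak of Cfi, complement factor I. Of circadian genes 9 of 41 were higher and 5 lower, 6 of the 9 in Arntl, the clock activator BMAL1 (7 peaks), but on the deposited scale the circadian counts were 8 higher and 10 lower. The chromatin regulators had 7 of 125 higher and 11 lower. With the code digit as a factor, no list had more than 2 higher or 5 lower peaks, and the steroid receptor and hormone target lists had 0 of each. With the epithelium minus stroma difference as a covariate, no peak of any list was called.

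**Figure D5:**
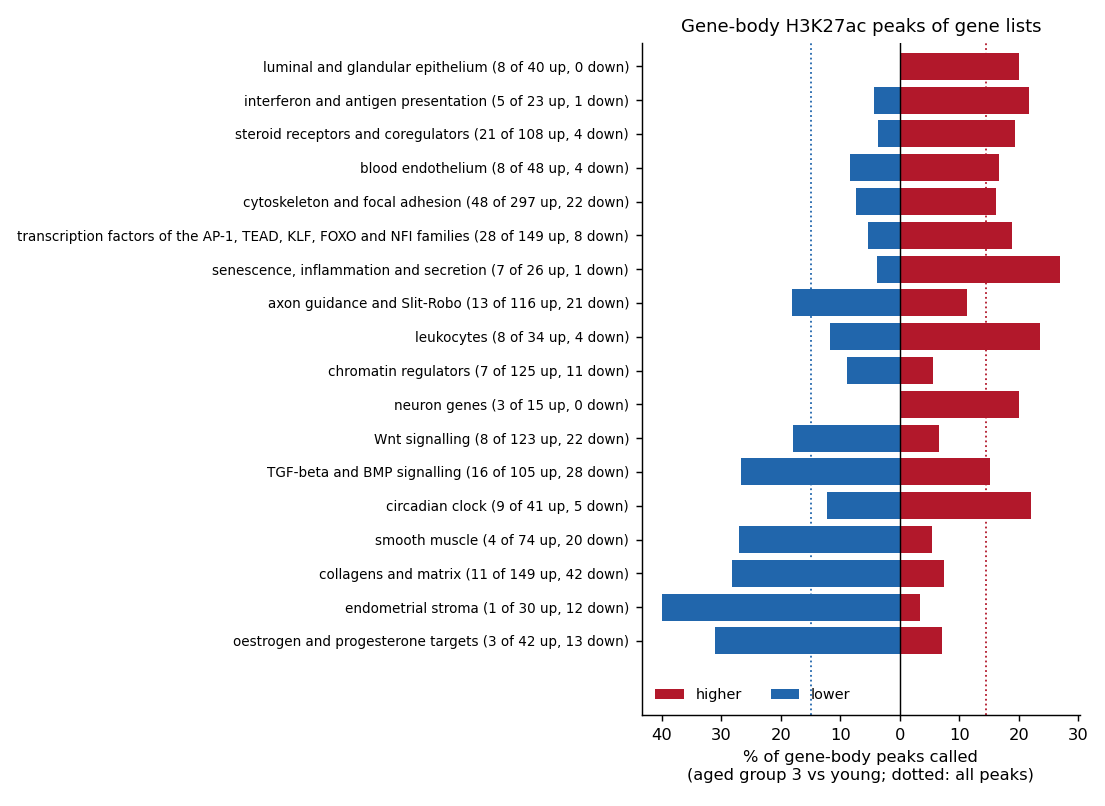
Percentage of gene-body peaks called higher (right of 0) and lower (left of 0) in aged group 3 against young for lists with at least 15 gene-body peaks, ordered by median change, with all H3K27ac peaks as dotted lines (14.4% higher, 14.9% lower). Epithelial genes have 8 of 40 higher and 0 lower, and stromal genes 1 of 30 higher and 12 lower.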

How the data were processed

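H3K27ac and H3K4me3 were profiled in 27 uteri. The authors deposited log2 RPKM values for each peak and library. The submitters' processing notes name Bowtie2, the peak caller MACS2 (2.2.9.1), the annotation tool ChIPseeker (1.34.1), DESeq2 with DiffBind (3.8.0), deepTools (3.5.1) and the build GRCm38, with no role or order. Converted with each library's recovered depth, the values were whole reads within 0.05, with 0.9 reads standing for 0.

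Peaks were quantile-normalized between libraries and fitted with limma 3.58.1 in R 4.3.3: group means of all 27 libraries, eBayes with a mean-variance trend, two-sided, Benjamini-Hochberg adjustment over all 54354 tested peaks, threshold 0.05. No covariate was used. Body minus promoter differences were fitted in the same way over 3890 genes. A promoter was an H3K27ac peak within 1 kb of the gene's RefSeq start that also overlapped an H3K4me3 peak. Where a gene had several, the one with the highest mean level was used. Scripts were tested on simulated data. RefSeq starts, promoter and microRNA sequences are from GRCm38.p6, and no sequence of other peak bases was used here.

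Gene-body peaks and all gene lists were chosen with earlier results of these data known. Peaks named for every aged library lying beyond every young one are the 12 per direction with the largest change, 1 per gene, without predicted genes and with the higher group's mean in the upper 3 level quartiles of the tested peaks. Named genes are up to 8 per direction with at least 4 peaks all called, the 8 with most peaks, up to 6 with 2 calls in each direction, the 8 peaks of highest level, 6 genes per direction by p for body minus promoter, and the 4 largest per list. Other members of lists, and Gm5155, were named after their values were seen. A few genes that these rules select are not reported here. Alternatives covered the scaling, the filter on low values, the fit, covariates, a replicate block and leaving out each library.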

Additional observations from a re-analysis of the deposited data

Results flagged for a closer look

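In 6 of 116 groups of values for the named gene-body peaks, 1 library stood apart from the rest of its group by Dixon's criterion, and chance flags about 1 group in 20. The Gpr137 peak was at -4.21 in young replicate 6, with the next young library at -1.1. The Irak2 peak was at -3.47 in the same library, with the next at -0.59. The Lipk peak was at -1.24 in young replicate 3 (next -0.6) and the Dock8 peak at -1.27 in young replicate 4 (next -0.34). The Arid1b peak was at 1.75 in young replicate 1 (next 1.22), and the Adamts2 peak at 0.45 in aged group 2 replicate 5 (next 1.49).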

How the results depend on the processing

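Main counts of gene-body peaks, aged group 3 against young, were 3812 higher and 2658 lower, and no peak called both there and under another setting reversed. Higher and lower counts were 8 and 2 with the epithelium minus stroma covariate, 366 and 156 with the code digit as a factor, 1703 and 1322 with mouse numbers above and below 100 as a factor, 1931 and 1735 for peaks at or above the lower quartile of level (15295 gene-body peaks), 472 and 292 without digit 6, and 1505 and 579 with an absolute log2 change above 1. Lower peaks numbered 4386 with values as deposited and 4026 with libraries centred on their medians. Leaving out 1 library gave 2728 to 4921 higher and 1690 (without young replicate 2; 1708 without young replicate 3) to 3932 lower. The epithelium minus stroma covariate ended the call of all 24 named peaks and all 12 named body minus promoter genes, with sizes of 0.4 to 1.94 and 0.29 to 1.86, and the cause was not tested.

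For aged group 2 against young, the 2 higher peaks became 0 with the digit factor, without the trend, with the mouse number factor, with only the groups compared, with the filter on low level and without digit 6, and 1 with the percent of reads in peaks as a covariate. Leaving out 1 library gave 0 to 2 higher and 0 lower: 0 without young replicates 1, 3 or 7 or aged group 2 replicates 4, 5 or 6, and 1 without young replicates 2, 5 or 6 or aged group 2 replicates 1 or 2. Aged group 1 against young had 1 higher with the epithelium minus stroma covariate, and 0 without any 1 library. Aged group 2 against aged group 1 stayed at 0, and aged group 3 against aged group 2 had 0 to 11, the 11 without aged group 2 replicate 5 and 2 without aged group 3 replicate 3.

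The body minus promoter counts of 743 higher and 114 lower were 2 and 0 with the epithelium minus stroma covariate, 95 and 5 with the digit factor, 88 and 22 with the mouse number factor and 47 and 4 without digit 6, and 215 lower with values as deposited or centred. Leaving out 1 library gave 416 to 1075 higher and 53 (without young replicate 2) to 210 lower (without aged group 3 replicate 10). Counts moved by over 1.5 times without each of young replicates 1, 2 and 3 (469, 469 and 416 higher, 59, 53 and 54 lower) and aged group 3 replicates 2, 6, 7, 8 and 9 (451, 426, 478, 488 and 468 higher, 60, 64, 75, 66 and 70 lower), and for lower genes also without young replicate 6 (65).

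With the replicate number as a block, 3688 gene-body peaks were higher and 2928 lower in aged group 3, 1 was higher in aged group 2, and 557 and 118 genes were called by body minus promoter. The labels do not say that a number marks shared mice or days. Same-numbered libraries of aged group 3 and young correlated at -0.28 to 0.24, with 2 of 7 pairs above 0.1. For aged group 2 and young they correlated at -0.07 to 0.42 (mean 0.19, against -0.03 for other numbers), with 4 of 6 above 0.1, and for aged group 1 at -0.03 to 0.13, with 1 of 4. As not every pair exceeded 0.1, the numbers were not taken to pair the mice. The percent of reads in peaks as a covariate, the omission of digit 6 and the restriction to RefSeq extents were chosen after seeing the data. With 28 to 57 reads in the median gene-body peak, changes in weak peaks were least precise.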
